A study of Mus musculus with 10 samples.

Results

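Gfi1 and Gfi1b encode a pair of closely related zinc-finger repressors, and Kdm1a and Rcor1 encode LSD1 and CoREST, the histone demethylase and the scaffold protein through which both repressors act. The 4 genes were taken by symbol from a deposited RNA-seq table of 23240 genes, and each has 1 row with a value in all 10 libraries. The study asked how loss of the transcription factor Runx1 alters myeloid progenitors of mouse bone marrow. All mice carried the vav-Cre transgene, which is active across blood cells from an early stage. Libraries labelled Runx1-deleted came from mice whose floxed Runx1 alleles had been removed by that Cre (Runx1 Δ/Δ), and wild-type libraries from mice with unaltered Runx1 (wt/wt) and the same transgene. The sort took kit+ progenitors free of lin, sca, CD41 and CD105, and divided them by the Fc receptors CD16/32 and by CD150. The groups were Runx1-deleted XMP (CD16/32+ CD150+, a fraction sorted from Runx1-deleted marrow alone), Runx1-deleted GMP (CD16/32+ CD150-), wild-type GMP, Runx1-deleted MEP (CD16/32- CD150+) and wild-type MEP, with 2 libraries in each. GMP and MEP stand for granulocyte-macrophage and megakaryocyte-erythroid progenitors.

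GFI1 and GFI1B carry at their amino end a short SNAG domain that docks into LSD1, and LSD1 bound to CoREST removes methyl groups from histone H3 at the genes to which the zinc fingers bind. In blood formation GFI1 is known for its need in neutrophil development and for restraint of monocyte genes, and GFI1B for its need in red cells and megakaryocytes. Each protein has been reported to repress its own gene and the gene of the other. In the embryo both genes act downstream of Runx1 where the first blood cells leave the endothelium.

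Because the 2 proteins read the same DNA core, AATC, the 250 bases before the start of each repressor gene are shown with every AATC or its complement GATT in capitals. Both sequences are from RefSeq on build GRCm38.p6, minus strand, 5′ to 3′, and all 4 genes matched an entry. The window of Gfi1, before the upstream of its 2 annotated starts, lies at chr5:107725806-107726055. The window of Gfi1b lies at chr2:28621983-28622232.
Gfi1 promoter: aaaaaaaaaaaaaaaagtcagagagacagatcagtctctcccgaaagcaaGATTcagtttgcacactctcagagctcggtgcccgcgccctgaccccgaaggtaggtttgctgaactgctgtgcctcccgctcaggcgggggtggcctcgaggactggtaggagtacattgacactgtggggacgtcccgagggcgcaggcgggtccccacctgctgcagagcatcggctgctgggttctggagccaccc
Gfi1b promoter: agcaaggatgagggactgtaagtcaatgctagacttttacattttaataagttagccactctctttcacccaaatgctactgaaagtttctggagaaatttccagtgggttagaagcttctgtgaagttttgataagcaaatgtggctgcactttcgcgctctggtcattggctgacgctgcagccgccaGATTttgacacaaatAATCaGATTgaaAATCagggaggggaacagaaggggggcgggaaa
The Gfi1b window held AATC 4 times over both strands, among them an AATC and a GATT a single base apart, and the Gfi1 window held it 1 time. AATC is common, being present in 69.0% of 32851 promoter windows of that length, and 7.04% held it at least 4 times. The window before the second Gfi1 start (chr5:107724344-107724593) and that of Rcor1 had 0 matches, and that of Kdm1a had 1. The longer core AATCAC, which contains AATC and is present in 9.14% of windows, was in none of the 5 windows of the 4 genes. The same held for the RUNX core TGTGGT, present in 14.0% of windows. The GATA core GATAA, present in 22.6% of windows, was found 1 time in the Gfi1b window, in lower case above, and in none of the other 4. These are letter matches and were not tested as binding sites.

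Levels are in RPKM, reads per kilobase of gene and per fixed number of mapped reads, so they can be set against each other between genes. The totals behind these values, worked back from the size of 1 read, were 20.8 to 54.9 M reads per library. Granule and erythroid markers followed the gates. The 5 granule genes summed to 7560 to 7910 RPKM in Runx1-deleted GMP and 11600 to 11800 in wild-type GMP. They summed to 30.1 to 31.9 in Runx1-deleted MEP and 38.0 to 50.5 in wild-type MEP. The 5 erythroid genes summed to 155 to 212 RPKM in XMP, 10.9 to 16.4 in Runx1-deleted GMP, 23.2 to 25.6 in wild-type GMP, 630 to 639 in Runx1-deleted MEP and 1070 to 1150 in wild-type MEP. The 5 lymphoid markers summed to at most 1.74 RPKM in any library. Runx1 itself stood at 63.0 and 72.3 RPKM in Runx1-deleted GMP against 28.5 and 26.8 in wild-type GMP, and at 41.5 and 36.8 in Runx1-deleted MEP against 17.2 and 25.5 in wild-type MEP. A value over the whole gene also counts reads outside the floxed part, so this row cannot check the deletion, and the genotypes rest on the labels. Differences below are log2(RPKM + 1) from limma over 10905 genes, with Benjamini-Hochberg adjusted p-values, and a gene was called at an adjusted p under 0.05. The labels do not say whether the libraries of 1 group are from separate animals, and p-values measure the spread between libraries only, which may be technical. Where groups are said below not to overlap, the share of all genes that do so was not counted.

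**Figure D1:**
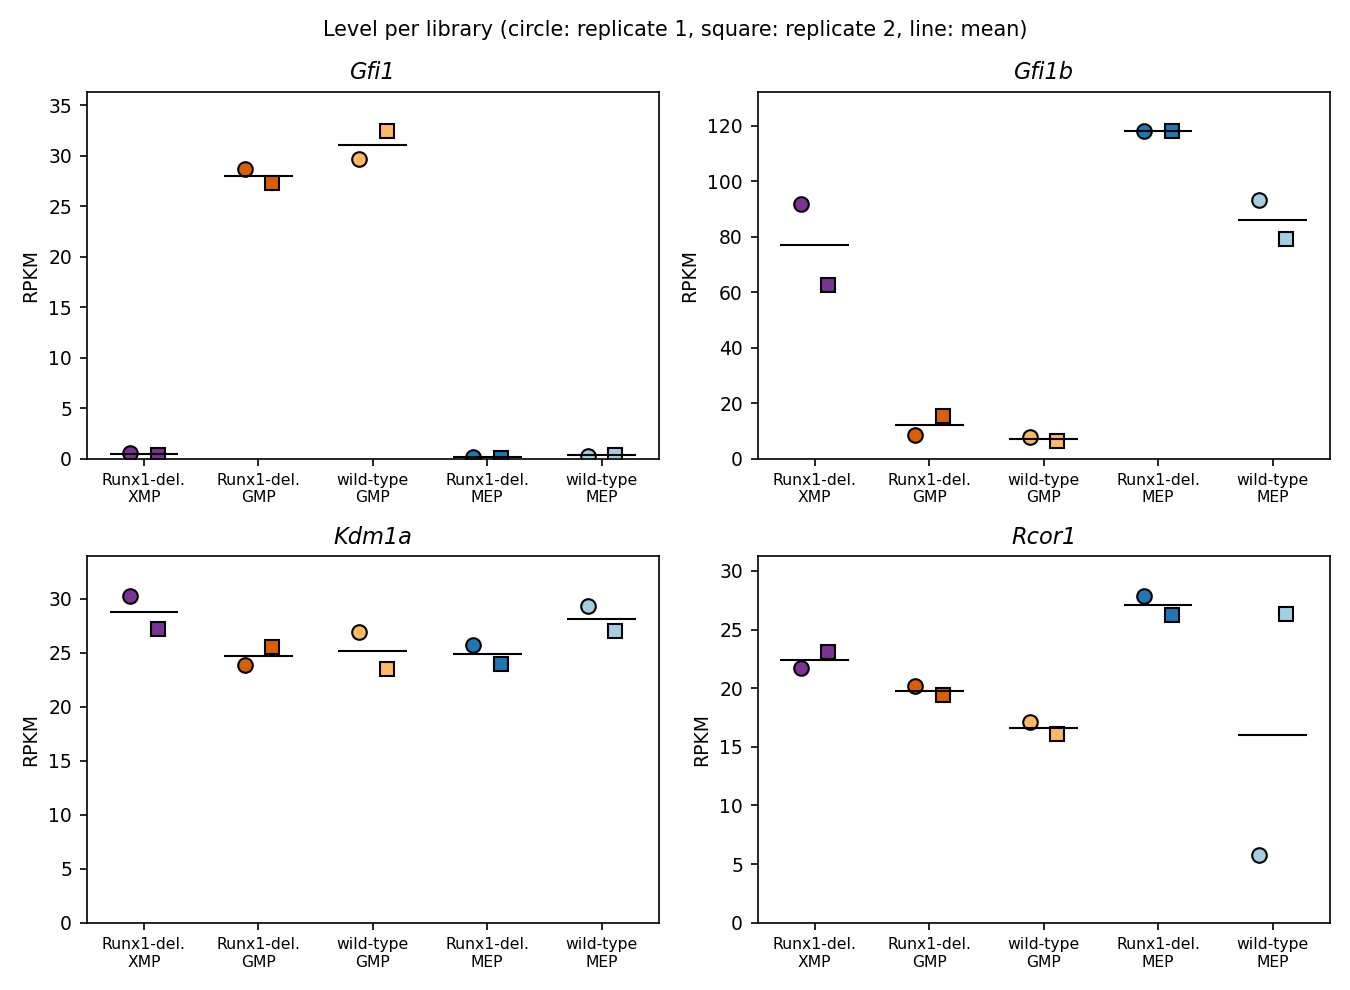
RPKM of Gfi1, Gfi1b, Kdm1a and Rcor1 in each library of the 5 groups (linear axes from 0; circle, replicate 1; square, replicate 2; line, mean of the 2). Gfi1 is at 27.3 to 32.4 RPKM in the 4 GMP libraries and under 0.6 in the other 6, Gfi1b runs the other way, and Rcor1 has 1 low library, wild-type MEP replicate 1 at 5.80 RPKM.

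Gfi1 was a GMP transcript in both genotypes. It stood at 28.7 and 27.3 RPKM in Runx1-deleted GMP, and 29.7 and 32.4 in wild-type GMP. Runx1-deleted MEP had 0.150 and 0.0660 RPKM, and wild-type MEP had 0.288 and 0.338. All 4 GMP libraries lay far above all 4 MEP libraries. The mean in GMP was 260 times that in MEP among Runx1-deleted libraries (log2 difference 4.71 ± 0.168 SE, limma adjusted p = 1.76e-08) and 99.0 times among wild-type libraries (4.61 ± 0.168, limma adjusted p = 1.53e-08). The MEP means rest on 16 and 8 reads in Runx1-deleted and 30 and 44 in wild-type libraries, so these ratios are only loosely known. The log2 differences include the pseudocount of 1 and are therefore smaller than the ratios of means. In these bulk samples, fewer cells with the transcript and less of it per cell cannot be told apart.

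Gfi1b was highest in MEP and present in GMP. It stood at 8.48 and 15.5 RPKM in Runx1-deleted GMP, and 7.89 and 6.48 in wild-type GMP. Runx1-deleted MEP had 118 and 118 RPKM, and wild-type MEP had 93.1 and 79.1. The GMP and MEP libraries did not overlap in either genotype. The mean in MEP was 9.88 times that in GMP without Runx1 (log2 difference, GMP minus MEP, -3.26 ± 0.263 SE, limma adjusted p = 3.61e-06) and 12 times with it (-3.41 ± 0.263, limma adjusted p = 2.96e-06). Between the gates 2 of the 4 genes were thus called in each genotype, where 24.5% of all genes tested were called between Runx1-deleted GMP and MEP (14.1% higher in GMP and 10.4% lower) and 21.6% between wild-type GMP and MEP (11.7% higher in GMP and 9.83% lower). Kdm1a and Rcor1 were not called between the gates. The counterparts in the authors' deposited table, whose FDR-corrected p-values come from Baggerley's test of read proportions, were 1.71e-12 for Gfi1 between wild-type MEP and wild-type GMP and listed as 0 for Gfi1b.

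The 2 gates differed less in the sum of the repressors than in which of them made it up. The summed level was 37.2 and 42.7 RPKM in Runx1-deleted GMP, and 37.6 and 38.8 in wild-type GMP. It was 119 and 118 RPKM in Runx1-deleted MEP and 93.4 and 79.4 in wild-type MEP. Gfi1b made up 22.8% and 36.2% of that sum in Runx1-deleted GMP and 21.0% and 16.7% in wild-type GMP. In MEP it made up 99.9% in both Runx1-deleted libraries, and 99.7% and 99.6% in the wild-type ones. Over the 10 libraries the 2 genes ran against each other (Pearson r = -0.981 on the log2 scale), a description over libraries that fall into separate clusters by gate.

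None of the 4 genes was called on loss of Runx1 in either gate. Over all genes tested, 5.22% were called between Runx1-deleted and wild-type GMP and 8.0% between Runx1-deleted and wild-type MEP. For Gfi1 the difference was -0.142 in GMP (95% interval -0.513 to 0.228, limma adjusted p = 0.631) and -0.246 in MEP (-0.617 to 0.124, limma adjusted p = 0.418). In GMP the means were 28 ± 1.03 RPKM in Runx1-deleted and 31 ± 1.91 in wild-type libraries (SD, n = 2 each). In MEP the transcript is low, and a difference of log2(RPKM + 1) understates a change at such levels. Gfi1 had 16 and 8 reads in Runx1-deleted MEP against 30 and 44 in wild-type MEP, and these do not overlap. With a pseudocount of 0.1 in place of 1 the MEP difference was -1.02 (limma adjusted p = 0.0579).

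Gfi1b leaned upward without Runx1 in both gates without passing the test. In GMP the mean was 12 ± 4.94 RPKM in Runx1-deleted and 7.18 ± 1 in wild-type libraries (SD, n = 2 each), a log2 difference of 0.616 with an interval from 0.0364 to 1.19 (limma adjusted p = 0.196). The higher Runx1-deleted library carried most of it: without replicate 2 at 15.5 RPKM the difference was 0.217, and without replicate 1 at 8.48 RPKM it was 1.01. The gap between these 2 libraries was matched or passed by 0.596% of genes tested in that group. In MEP the mean was 118 ± 0.114 RPKM in Runx1-deleted and 86.1 ± 9.91 in wild-type libraries (SD, n = 2 each). That difference was 0.459 (interval -0.12 to 1.04, limma adjusted p = 0.336), while the authors' deposited table gives an FDR-corrected p of 0.00264 for it. Both Runx1-deleted libraries lay above both wild-type ones in either gate, in GMP by a narrow margin (8.48 against 7.89 RPKM). The share of all genes separated in this way was not counted. Libraries carry numbers 25 to 29 or 30 to 34, 1 of each range in every group. Gfi1b was higher in the lower-numbered library of every group except Runx1-deleted MEP, where both had 118 RPKM, and the part of this order in the gaps between libraries was not tested. The effect of Runx1 loss on Gfi1b in GMP minus that in MEP was 0.156 (limma adjusted p = 0.999), in a comparison that called 1.74% of genes (0.954% higher and 0.789% lower), none of the 4 among them.

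In GMP the wild-type libraries were run in lanes 3 and 2 and the Runx1-deleted ones both in lane 5, so lane and genotype cannot be told apart there. In MEP 1 wild-type library shares lane 5 with both Runx1-deleted ones. With lanes 4 and 5 alone, the MEP differences were -0.274 for Gfi1, 0.576 for Gfi1b, -0.116 for Kdm1a and 0.0381 for Rcor1, with limma adjusted p-values of 0.357, 0.454, 0.76 and 0.928 in the same order.

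**Figure D2:**
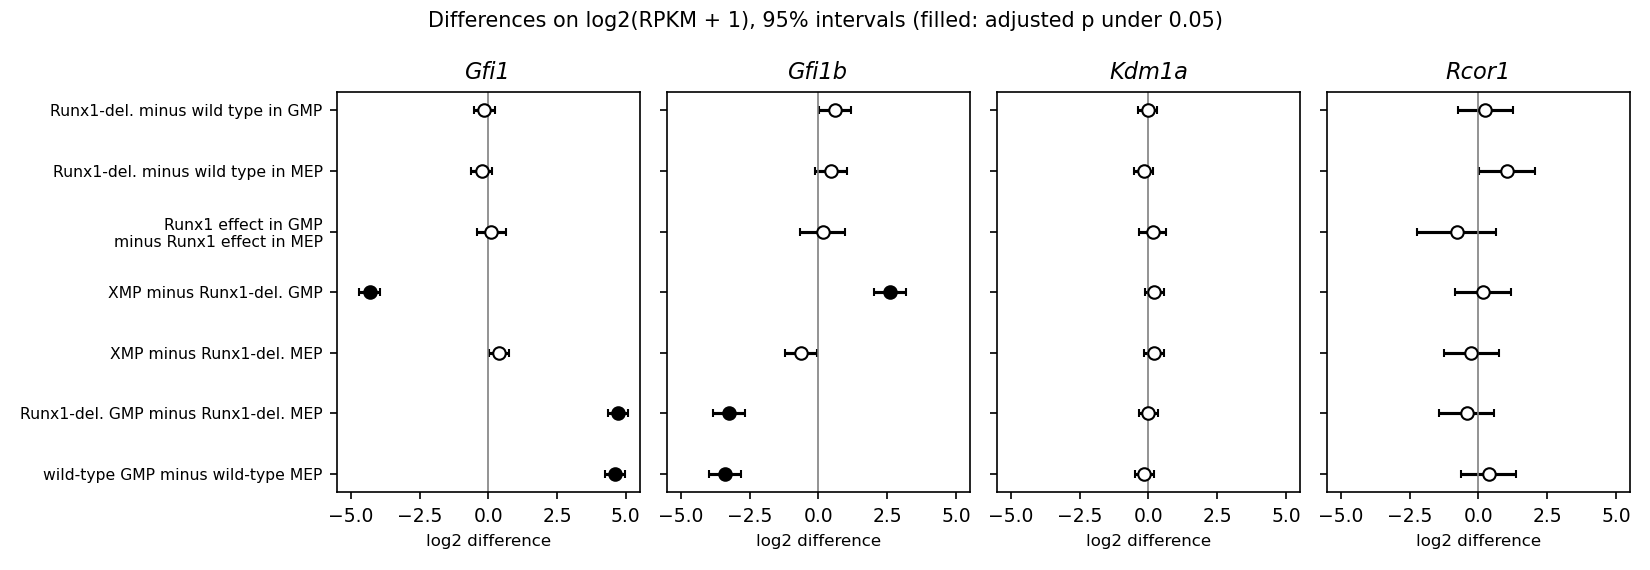
Differences of log2(RPKM + 1) with 95% intervals for the 4 genes in 7 comparisons (filled points, limma adjusted p under 0.05). Filled points are confined to Gfi1 and Gfi1b and to the 3 comparisons between gates or of XMP with GMP, where the 2 genes lie on opposite sides of 0.

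XMP shares CD16/32 with GMP and CD150 with MEP, and for the repressor pair it stood with MEP. Gfi1 was at 0.551 and 0.353 RPKM in XMP against 28.7 and 27.3 in Runx1-deleted GMP, 62.0 times lower on the means (log2 difference -4.32, interval -4.69 to -3.95, limma adjusted p = 8.19e-08). Gfi1b was at 91.6 and 62.6 RPKM in XMP against 8.48 and 15.5 in Runx1-deleted GMP, 6.44 times higher (2.62, interval 2.04 to 3.2, limma adjusted p = 2.63e-05). These 2 of 4 genes were called where 19.7% of all genes were. The XMP and GMP libraries did not overlap for either gene. Gfi1b made up 99.4% of the summed level in both XMP libraries.

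Against Runx1-deleted MEP neither repressor was called in XMP, where 7.74% of all genes were called and 0 of the 4. Gfi1b stood at 91.6 and 62.6 RPKM in XMP against 118 and 118 in Runx1-deleted MEP, a log2 difference of -0.636 (interval -1.22 to -0.0571, limma adjusted p = 0.2). The XMP libraries are unequal, with a gap that 5.06% of genes matched or passed, but both lie below both MEP libraries. Gfi1 had 66 and 44 reads in XMP against 16 and 8 in Runx1-deleted MEP. Its mean was 4.19 times higher in XMP, and the log2 difference was 0.388 (interval 0.0172 to 0.758, limma adjusted p = 0.225). With a pseudocount of 0.1 in place of 1, which gives low values more room, the difference was 1.41 with a limma adjusted p of 0.0152. The call of this low transcript therefore rests on the pseudocount.

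**Figure D3:**
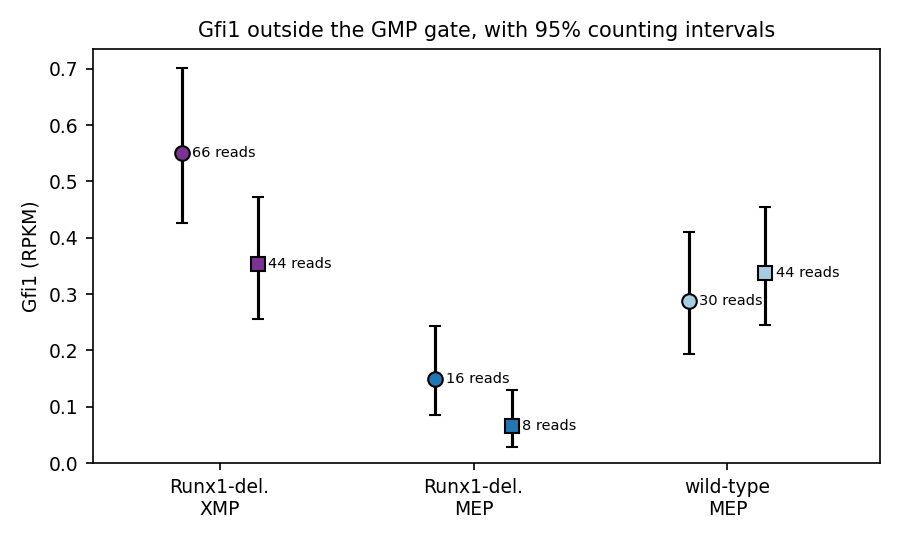
Gfi1 in RPKM in the 6 libraries outside the GMP gate, with exact 95% Poisson intervals that cover counting error only and the number of reads beside each point. Both XMP libraries lie above both Runx1-deleted MEP libraries, and the intervals of XMP replicate 2 and both wild-type MEP libraries overlap.

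In this low range Gfi1, not called by the main test, had a higher mean in XMP than in Runx1-deleted MEP, as had the granule markers. The summed granule markers were at 129 to 163 RPKM in XMP, against 30.1 to 31.9 in Runx1-deleted MEP. All 5 were called higher in XMP, where 5.14% of all genes were. Of the 4 mature neutrophil markers tested, 1 was called higher (S100a9). Camp, another of them, had a lower mean in XMP (0.254 against 0.312 RPKM) and was not called. The summed monocyte markers were at 11.2 to 17.1 RPKM in XMP against 3.45 to 4.46 in Runx1-deleted MEP. The part of granule or monocyte progenitors in the Gfi1 reads of XMP was not tested. Gfi1b, lower in XMP but not called, was set beside the erythroid and megakaryocyte markers, whose sums went in opposite directions. The erythroid sum was 155 to 212 RPKM in XMP against 630 to 639 in Runx1-deleted MEP. Of the 5 erythroid genes, 4 were called lower, where 2.6% of all genes were. Car1 averaged 31.2 RPKM in XMP against 354, while Gata1, not called, averaged 114 against 123. The megakaryocyte sum was 1100 to 1340 RPKM in XMP against 495 to 599 in Runx1-deleted MEP. Of these 5 genes, 3 were called higher (Itga2b, Gp9 and Gp5), where 5.14% of all genes were, and Pf4 and Vwf were not. Itga2b averaged 667 RPKM in XMP against 211. The part of either marker set in the Gfi1b level was likewise not tested.

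By mean level, Gfi1 ran upward from Runx1-deleted MEP (0.108 RPKM) and wild-type MEP (0.313) to XMP (0.452), Runx1-deleted GMP (28) and wild-type GMP (31). Gfi1b ran downward from Runx1-deleted MEP (118) and wild-type MEP (86.1) to XMP (77.1), Runx1-deleted GMP (12) and wild-type GMP (7.18). Within the GMP gate and among the MEP groups and XMP, neighbours tested by limma were not called for either gene. XMP and wild-type MEP were not compared by limma: their ranges overlap for Gfi1b, and for both genes the authors' deposited table gives an FDR-corrected p of 1.0.

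The genes whose profile over the 10 libraries was most like that of Gfi1, among 7784 genes with a mean of at least 5 RPKM, were Cd53 (Pearson r = 0.999), Cldn15 (0.998), Atp8b4 (0.998), Gm885 (0.997) and Ms4a6c (0.997). Cd53, which encodes a leukocyte tetraspanin, averaged 1.91 RPKM in XMP, 54.6 in Runx1-deleted GMP, 68.8 in wild-type GMP, 1.16 in Runx1-deleted MEP and 1.44 in wild-type MEP. Most like Gfi1b were Smap2 (0.994), Aqp1 (0.993), Ube2l6 (0.989), Isg20 (0.988) and Sh3glb1 (0.984). Aqp1, the water channel of red cells, averaged 241.0 RPKM in XMP, 7.86 in Runx1-deleted GMP, 3.81 in wild-type GMP, 612 in Runx1-deleted MEP and 296 in wild-type MEP. These correlations describe libraries that share a gate and fall into clusters, and no p is given.

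The transcript of the demethylase LSD1 was present at like levels in every group. Kdm1a stood at 30.3 and 27.2 RPKM in XMP, 23.9 and 25.5 in Runx1-deleted GMP, and 26.9 and 23.5 in wild-type GMP. Runx1-deleted MEP had 25.7 and 24.0 RPKM, and wild-type MEP had 29.3 and 27. The lowest of the 10 libraries was wild-type GMP replicate 2 and the highest XMP replicate 1. Its largest difference in the 7 comparisons was 0.211 for XMP minus Runx1-deleted GMP (limma adjusted p = 0.466). The genotype differences were -0.0242 in GMP (interval -0.374 to 0.326) and -0.172 in MEP (interval -0.522 to 0.178), so a change of 2-fold lies outside both intervals. In the annotation Kdm1a overlaps Luzp1 on the other strand, and whether reads were counted by strand is not given in the sources used here, so reads of the overlap cannot be told apart.

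The scaffold gene Rcor1 varied more than Kdm1a, and 1 library stood apart. It stood at 21.7 and 23.1 RPKM in XMP, 20.2 and 19.4 in Runx1-deleted GMP, and 17.1 and 16.1 in wild-type GMP. Runx1-deleted MEP had 27.9 and 26.2 RPKM, and wild-type MEP had 5.80 and 26.3. Wild-type MEP replicate 1 had 575 reads and replicate 2 had 3246. A gap of that size between the 2 wild-type MEP libraries, 2.0 on the log2 scale, was matched or passed by 0.348% of genes tested. Among 1505 genes of like length (2500 to 3100 bp) the median of replicate 1 minus replicate 2 was -0.146, and 6 genes, Rcor1 included, had a gap as low.

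Every Rcor1 comparison that involves wild-type MEP turns on that library. Runx1-deleted minus wild-type MEP was 1.04 (interval 0.0345 to 2.04, limma adjusted p = 0.212) with both libraries, 0.0381 without replicate 1, and 2.04 without replicate 2 (limma adjusted p = 0.000125). Wild-type GMP minus wild-type MEP was 0.368 with both (limma adjusted p = 0.652), -0.633 without replicate 1 (limma adjusted p = 0.0136), and 1.37 without replicate 2 (limma adjusted p = 2e-04). The test also shares this spread across groups. Runx1-deleted GMP minus Runx1-deleted MEP, which uses neither library, was -0.427 with a limma adjusted p of 0.592 on all libraries, and 0.0272 or 0.0266 when wild-type MEP replicate 1 or 2 was left out. Rcor1 stood lower in Runx1-deleted GMP than in Runx1-deleted MEP in all 4 libraries. Runx1-deleted minus wild-type GMP was 0.244 (limma adjusted p = 0.771), with both Runx1-deleted libraries above both wild-type ones.

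The other 16 genes of the LSD1-CoREST group were all tested. They comprise the paralogs Kdm1b, Rcor2 and Rcor3, the histone deacetylases Hdac1 and Hdac2, and partners such as Hmg20b, Phf21a, Gse1 and Ctbp1. Between Runx1-deleted and wild-type GMP 0 of the 16 were called in either direction, with a median difference of 0.209 against 0.0488 over all genes tested, of which 5.22% were called. Between Runx1-deleted and wild-type MEP 0 were higher and 1 lower, with a median of 0.167 against 0.0288. Of all genes 8.0% were called there and 4.03% were lower, so 1 of 16 is near that share. In wild-type MEP 13 of the 16 were lower in replicate 1 than in replicate 2, with a median gap of -0.595, where 63.5% of all genes tested were lower with a median of -0.155. The part of this library in the MEP median was not tested.

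The gene that fell was Rcor2, which encodes CoREST2. It stood at 1.44 and 1.20 RPKM in Runx1-deleted MEP against 6.64 and 8.65 in wild-type MEP, and the groups lie far apart. Its mean was 5.81 times lower (log2 difference -1.89 ± 0.188 SE, limma adjusted p = 0.000142), and it was called whichever library was left out. In GMP it stood at 1.54 and 1.43 RPKM in Runx1-deleted against 2.43 and 3.31 in wild-type libraries, which do not overlap either (-0.63, limma adjusted p = 0.0845). The 2 effects differed by 1.26 (limma adjusted p = 0.0392), a call lost on leaving out any library except those of wild-type MEP, with adjusted p-values up to 0.201. It was also lost with quantile normalization (1.04, adjusted p = 0.0602), with no filter on low values (adjusted p = 0.112) and with a pseudocount of 0.1 (1.55, adjusted p = 0.0974), and with the replicate block (adjusted p = 0.0564) or only the groups compared (adjusted p = 0.0754). In XMP Rcor2 stood at 2.95 and 3.27 RPKM, above Runx1-deleted GMP (0.726, limma adjusted p = 0.0177) and Runx1-deleted MEP (0.829, limma adjusted p = 0.0218). Both of these calls were lost when any of the 4 libraries compared was left out, with adjusted p-values up to 0.128 and 0.159.

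The other paralogs were not called with Runx1 loss. Kdm1b, the second LSD1-type demethylase, differed by 0.17 in GMP (limma adjusted p = 0.681) and 0.239 in MEP (limma adjusted p = 0.572). Rcor3, which encodes CoREST3, stood at 5.68 and 6.11 RPKM in Runx1-deleted GMP against 5.02 and 3.19 in wild-type GMP. In MEP it stood at 8.77 and 9.25 RPKM in Runx1-deleted libraries against 2.78 and 8.21 in wild-type ones, so the low value is again that of wild-type MEP replicate 1. Across the gates Ctbp1, a corepressor, was the 1 called gene of the group between Runx1-deleted GMP and MEP, at 76.9 and 85.5 RPKM in GMP against 135 and 111 in MEP (-0.586, limma adjusted p = 0.0331), where 24.5% of all genes were called. It lost the call without either GMP library or MEP replicate 1 (adjusted p up to 0.241). Between wild-type GMP and MEP 0 of the 16 were higher and 2 lower, where 21.6% of all genes were called and 9.83% lower. Rcor2, with the wild-type values given above, was lower in GMP (-1.16, limma adjusted p = 0.000903) and kept this call whichever library was left out. Gse1 stood at 29.2 and 22.4 RPKM in wild-type GMP against 36.7 and 64.0 in wild-type MEP (-0.895, limma adjusted p = 0.0195). It lost that call without replicate 2 of wild-type GMP (-0.713, adjusted p = 0.176) or of wild-type MEP (-0.503, adjusted p = 0.08), and with no filter on low values (adjusted p = 0.0584). Gse1 was higher in XMP than in Runx1-deleted GMP, at 62.4 and 68.8 against 31.8 and 30.7 RPKM (1.04, limma adjusted p = 0.00867). That call was lost without Runx1-deleted GMP replicate 1 or 2 or XMP replicate 2, with differences of 1.07, 1.02 and 0.975 and adjusted p-values of 0.0519 to 0.063.

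**Figure D4:**
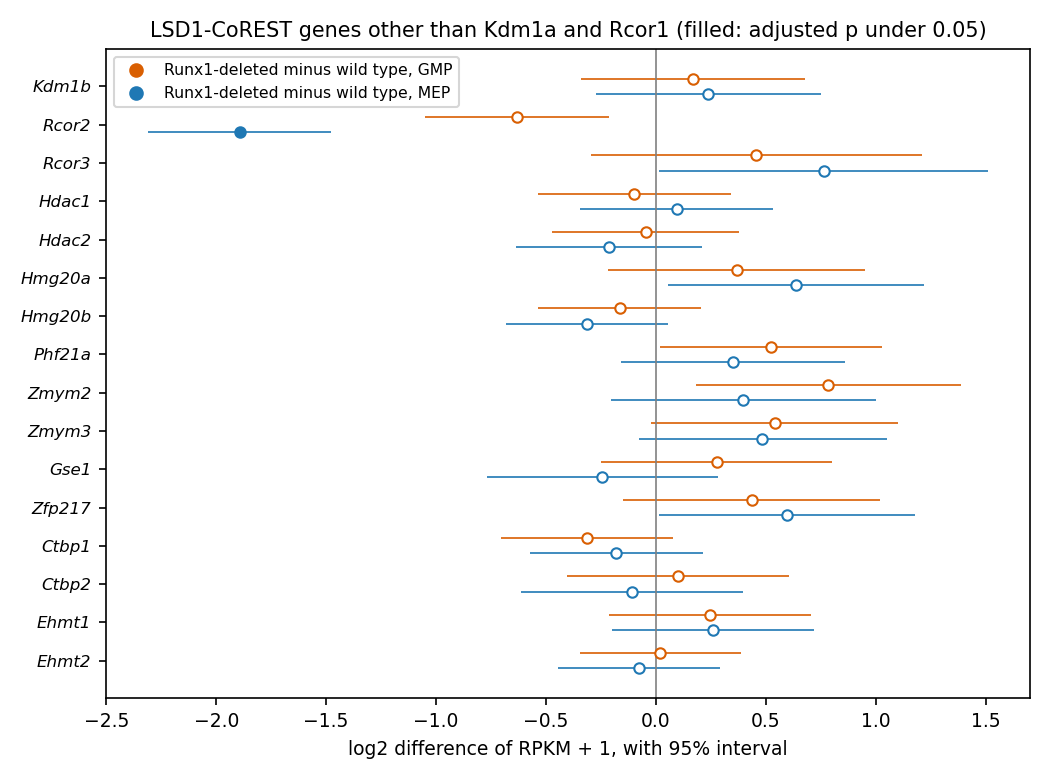
Runx1-deleted minus wild type in log2(RPKM + 1), with 95% intervals, for the 16 LSD1-CoREST genes other than Kdm1a and Rcor1, in GMP and in MEP (filled points, limma adjusted p under 0.05). Rcor2 in MEP, at -1.89, is the one filled point.

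None of the 7 other SNAG-domain genes looked up was present at a level that could be tested. Snai1, Snai2, Snai3, Insm1, Insm2, Scrt1 and Scrt2 all failed the filter of 1 RPKM in at least 2 libraries. The highest value among these 7 genes was 0.105 RPKM, for Snai1 in XMP replicate 1.

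A list of 17 genes reported elsewhere as GFI1 targets and a list of 7 reported as GFI1B targets were read beside the repressors. The lists were written from general knowledge and not from binding data of these cells, and 3 genes stand in both. Of the GFI1 targets, 16 could be tested and Egr2 could not. Between Runx1-deleted and wild-type GMP, where Gfi1 was not called, 2 were higher (Id1 and Meis1) and 3 lower (Id2, Cdkn1a and Elane), with a median of -0.242 against 0.0488 over all genes. Between Runx1-deleted and wild-type MEP, 0 were higher and 5 lower (Egr1, Nab2, Hoxa9, Irf8 and Sfpi1), with a median of -0.391 against 0.0288. Sfpi1, last of these by p, was named after its values were seen. In each direction 3.15% and 2.07% of all genes were called higher and lower in GMP, and 3.97% and 4.03% in MEP. Of the calls in GMP 60.3% were higher, and 50% with quantile normalization.

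Elane, the neutrophil elastase gene, stood at 1240 and 1020 RPKM in Runx1-deleted GMP against 2350 and 2640 in wild-type GMP (-1.15, limma adjusted p = 0.0245). Id2, an inhibitor of helix-loop-helix factors, stood at 3.56 and 5.52 RPKM in Runx1-deleted GMP against 11.5 and 21.0 in wild-type GMP (-1.6, limma adjusted p = 0.0095). The groups do not overlap for either gene. Egr1, an immediate early factor, stood at 1.33 and 2.35 RPKM in Runx1-deleted MEP against 6.02 and 5.68 in wild-type MEP (-1.29, limma adjusted p = 0.00465). Nab2, a corepressor of the EGR factors, stood at 1.54 and 1.61 RPKM in Runx1-deleted MEP against 3.87 and 3.59 in wild-type MEP (-0.877, limma adjusted p = 0.00721). Egr1 and Nab2 thus fell together in MEP, neither was called in GMP, and the difference between the gates was not called for either. Egr1 kept its call whichever library was left out, and Nab2 lost it without either Runx1-deleted MEP library (-0.855 and -0.898). With only the groups compared, both calls were lost (limma adjusted p = 0.0534 for Egr1 and 0.101 for Nab2). The calls of Elane, Id1 and Cdkn1a in GMP were each lost on leaving out any of the 4 GMP libraries, with adjusted p-values up to 0.229, 0.215 and 0.298. With quantile normalization the Elane difference was -0.736 (adjusted p = 0.206). That of Id2 was lost without wild-type GMP replicate 2 or Runx1-deleted GMP replicate 1 (-1.2 and -1.35, adjusted p = 0.133 and 0.118). That of Meis1 was lost without wild-type GMP replicate 1 or either Runx1-deleted GMP library, with adjusted p-values up to 0.206. Hoxa9, Irf8 and Sfpi1 in MEP lost theirs without 5, 6 and 7 of the 10 libraries, both Runx1-deleted MEP libraries among them, with adjusted p-values up to 0.14, 0.189 and 0.192.

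Of the 7 GFI1B targets, 2 were higher (Socs3 and Meis1) and 1 lower (Cdkn1a) in Runx1-deleted than in wild-type GMP, with a median of 0.192 against 0.0488 over all genes, of which 3.15% were called higher and 2.07% lower. In MEP 1 was higher (Socs3) and 1 lower (Rgs18), with a median of -0.108 against 0.0288, where 3.97% of all genes were higher and 4.03% lower. Socs3, which damps cytokine signalling, was the gene of either list with the largest rise on Runx1 loss. It stood at 8.02 and 7.64 RPKM in Runx1-deleted GMP against 1.16 and 0.898 in wild-type GMP, 7.60 times higher (2.12, limma adjusted p = 0.000183), and was called whichever library was left out. In MEP it stood at 2.62 and 2.21 RPKM in Runx1-deleted against 0.494 and 0.590 in wild-type libraries (1.15, limma adjusted p = 0.00741). That call was lost without Runx1-deleted MEP replicate 1 (1.06, adjusted p = 0.0608) and within lanes 4 and 5 (1.10, adjusted p = 0.0618). Rgs18, a regulator of platelet signalling, stood at 46.8 and 44.3 RPKM in Runx1-deleted MEP against 64.5 and 87.4 in wild-type MEP (-0.709, limma adjusted p = 0.045). It lost its call without any library but wild-type MEP replicate 1 (adjusted p up to 0.235).

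The target lists in XMP were set against both other Runx1-deleted groups, in comparisons that share the XMP libraries. Gfi1 was lower and Gfi1b higher in XMP than in Runx1-deleted GMP. Against Runx1-deleted MEP neither was called, and the means ran the other way. They were 0.452 against 0.108 RPKM for Gfi1 and 77.1 against 118 for Gfi1b. Against Runx1-deleted MEP, 7 of 16 GFI1 targets were higher and 0 lower, with a median of 0.882 against 0.0468 over all genes, of which 5.14% were called higher and 2.6% lower. Of those calls 66.4% were higher, and 54.3% with quantile normalization. Against Runx1-deleted GMP, 3 were higher and 7 lower, with a median of -0.456 against 0.0497, where 9.75% of genes were higher and 9.9% lower. Of the GFI1B targets, 4 of 7 were higher and 0 lower in XMP in each comparison, with medians of 0.938 against Runx1-deleted MEP and 1.54 against Runx1-deleted GMP. Of the 7 GFI1 targets called higher than in MEP, 4 kept the call when any of the 4 libraries compared was left out. Irf8, Cdkn1a and Sfpi1 lost it each time, the last 2 with adjusted p-values up to 0.109 and 0.104. Of the 4 GFI1B targets, 2 kept the call against MEP whichever of these libraries was left out, and Cdkn1a and Bcl2l1 did not.

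Meis1, a homeobox gene, rose in XMP against both groups. It stood at 113 and 106 RPKM in XMP, against 29.3 and 30.9 in Runx1-deleted GMP and 35.0 and 31.9 in Runx1-deleted MEP. Its difference was 1.83 against GMP (limma adjusted p = 2.55e-05) and 1.68 against MEP (limma adjusted p = 0.000501). Both XMP libraries lay above all 4 others, and Meis1 kept both calls whichever library was left out. Rgs18 was likewise higher, at 139 and 113 RPKM in XMP, against 35.0 and 39.9 in Runx1-deleted GMP and 46.8 and 44.3 in Runx1-deleted MEP. Bcl2l1, which encodes the survival protein BCL-XL, stood at 46.9 and 33.5 RPKM in XMP, against 11.4 and 14.7 in Runx1-deleted GMP and 22.2 and 18.4 in Runx1-deleted MEP. It was called against both, and against MEP it lost the call without XMP replicate 1 (0.702, adjusted p = 0.192) or either MEP library (1.07 and 0.808, adjusted p = 0.0508 and 0.129).

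Elane and Irf8 lay between the 2 other Runx1-deleted groups in XMP. Elane stood at 18.0 and 17.4 RPKM in XMP, against 1240 and 1020 in Runx1-deleted GMP (-5.91, limma adjusted p = 1.17e-07) and 3.09 and 2.93 in Runx1-deleted MEP (2.22, limma adjusted p = 0.000679). Irf8, a factor of monocytes and dendritic cells, stood at 5.41 and 4.40 RPKM in XMP, against 77.0 and 111 in Runx1-deleted GMP (-3.99, limma adjusted p = 3.86e-07) and 1.93 and 1.83 in Runx1-deleted MEP (1.03, limma adjusted p = 0.0188). The call of Irf8 against MEP was lost when any of the 4 libraries compared was left out, with adjusted p-values up to 0.147. Elane is also 1 of the 5 granule markers and Irf8 1 of the 4 monocyte markers whose sums are given above for the same groups. Csf1r and Id1, called lower in XMP than in Runx1-deleted GMP, were not called against Runx1-deleted MEP.

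**Figure D5:**
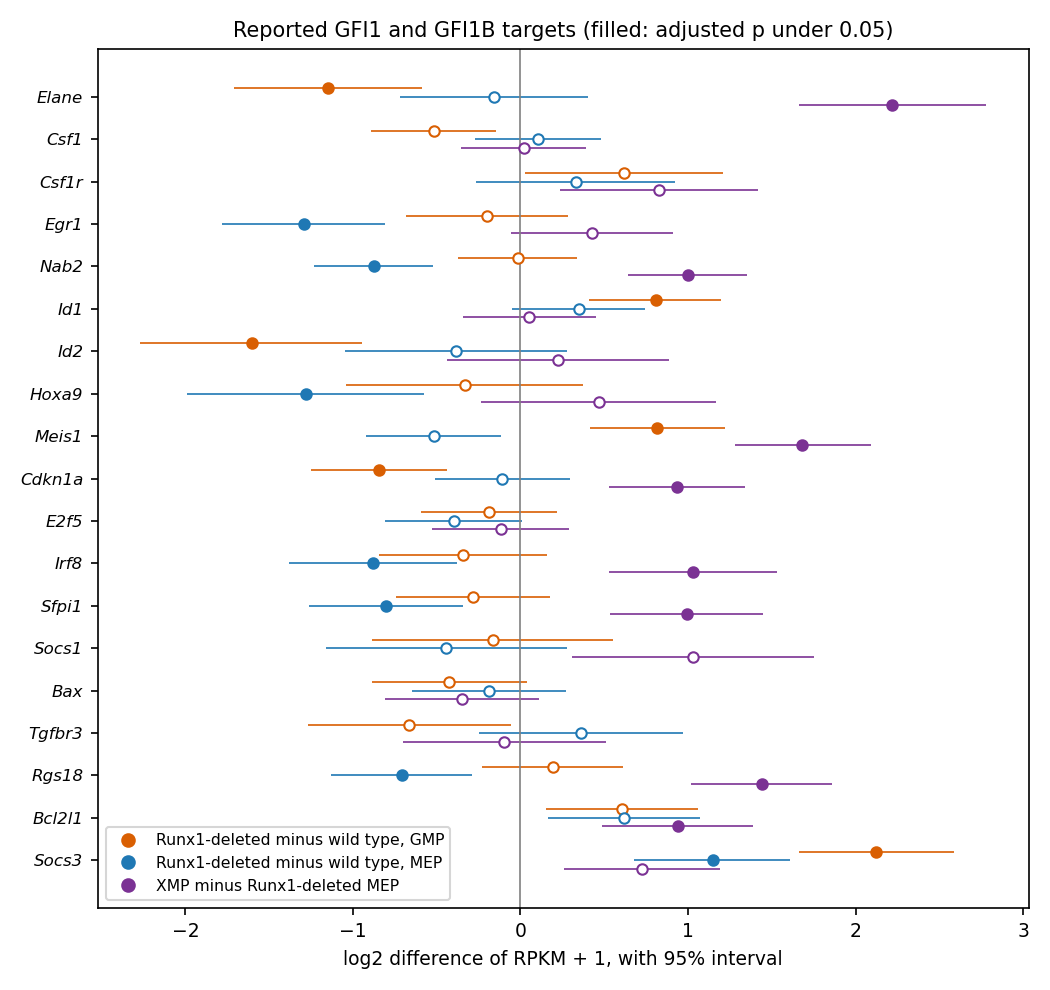
Differences of log2(RPKM + 1) with 95% intervals for tested genes of the GFI1 and GFI1B target lists, for Runx1 loss in GMP, Runx1 loss in MEP and XMP minus Runx1-deleted MEP (filled points, limma adjusted p under 0.05). Filled points for XMP all lie to the right of 0, with Elane at 2.22 and Meis1 at 1.68, and Socs3 is filled on the right in both genotype comparisons.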

How the data were processed

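RNA-seq was made from 10 sorted populations of mouse bone marrow, with libraries from a NEBNext Ultra or a TruSeq V2 LT kit per the labels' protocols, which do not record the kit of each library. The deposited table holds RPKM values computed by the authors for 23240 genes per library, and also, per the file headers, p-values of Baggerley's test for every pair of groups, plain and FDR-corrected. The submitters' processing notes name mm9 as the build. Which aligner and counter were used, and whether strand was used, is not given in the sources used here.

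Sample labels gave the groups, and column headers the lanes and library numbers. A gene entered the test when 2 or more libraries reached 1 RPKM (10905 genes). The model, limma 3.58.1 under R 4.3.3 with a trended eBayes step, took log2(RPKM + 1) of all 10 libraries with a mean for each group, which leaves 5 residual degrees of freedom. A pseudocount of 1 understates fold changes of low genes. P-values are two-sided and adjusted by Benjamini-Hochberg over all genes tested. The plan held a branch for counts that was not needed. All 4 genes passed the filter, Gfi1 through its GMP libraries.

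Read totals were worked back from the steps between RPKM values and annotated transcript lengths. For 19241 genes every value came out as whole reads within 0.01 read, and 3904 genes were at 0 in all libraries. Gene lengths behind the read numbers were 2863 bp for Gfi1, 1822 bp for Gfi1b, 3015 bp for Kdm1a and 2722 bp for Rcor1. The fit was tested on simulated data. Intervals of read numbers cover counting error only.

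The 4 genes, the gene lists, the markers and the tests were chosen with earlier results of these data known. Named genes were the 4 genes, Runx1, the paralogs Kdm1b, Rcor2 and Rcor3, up to 4 called genes in each direction with the smallest p from each list and comparison, and the 5 genes most like Gfi1 and Gfi1b by Pearson correlation. Marker lists for mature neutrophils, basophils and mast cells, and stem cells summed in XMP to 40.8 to 41.1, 28.5 to 32.1 and 3.65 to 5.64 RPKM, in that order. Promoter windows came from RefSeq (GRCm38.p6). Protein sequences were not used here. The values of 1 gene of the target lists are not reported here, though the counts include it.

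Alternatives were a pseudocount of 0.1, quantile normalization, a stricter filter (mean of 5 RPKM or more) or none, removal of a gene length trend, lanes 4 and 5 alone, the compared groups alone, the replicate number or the library series as a block, and leaving out each library.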

Additional observations from a re-analysis of the deposited data

Results flagged for a closer look

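For 2 genes of the lists the effect of Runx1 loss differed between the gates by limma's interaction term. Tested were 16 LSD1-CoREST genes, 16 GFI1 targets and 7 GFI1B targets, some genes being on both target lists. Of all genes tested, 1.74% were called in that comparison. Rcor2, which encodes CoREST2, differed by -0.63 in GMP and by -1.89 in MEP, and the GMP effect minus the MEP effect was 1.26 (adjusted p = 0.0392). Meis1, a homeobox gene on both target lists, stood at 29.3 and 30.9 RPKM in Runx1-deleted GMP against 14.7 and 18.9 in wild-type GMP, and at 35.0 and 31.9 in Runx1-deleted MEP against 42.6 and 54.7 in wild-type MEP. Its GMP effect minus its MEP effect was 1.33 (adjusted p = 0.0266). Leaving out single libraries gave 1.16 to 1.51 for Meis1, with adjusted p-values up to 0.15, and the call was lost without any library of wild-type GMP, Runx1-deleted GMP or Runx1-deleted MEP. For Rcor2 it gave 1.09 to 1.43, with adjusted p-values up to 0.201, and of these the call was kept only without either wild-type MEP library. It was also lost with quantile normalization (1.04, adjusted p = 0.0602), no filter on low values (adjusted p = 0.112), a pseudocount of 0.1 (1.55, adjusted p = 0.0974), the replicate block (adjusted p = 0.0564) and only the groups compared (adjusted p = 0.0754).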

How the results depend on the processing

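The 28 results of the 4 genes were recomputed 532 times in all, and 514 values kept their direction and their side of the threshold, 8 kept their sign and newly passed the threshold, and 10 changed sign. These counts hold the block by library number again for XMP minus Runx1-deleted GMP and Runx1-deleted GMP minus MEP, as described below. Of the sign changes 1 also passed, Rcor1 in wild-type GMP minus MEP without wild-type MEP replicate 1 (-0.633, adjusted p = 0.0136). No call was lost. Quantile normalization gave -0.0532 for the Gfi1b effect in GMP minus that in MEP and 0.0302 for Kdm1a in Runx1-deleted GMP minus Runx1-deleted MEP, which was 0.00867 with the length trend removed. Gfi1 in XMP minus Runx1-deleted MEP was 1.41 with a pseudocount of 0.1. Rcor1 in Runx1-deleted GMP minus Runx1-deleted MEP, -0.427, passed with lanes 4 and 5 only (adjusted p = 0.0244) and with only the groups compared (adjusted p = 0.047), both of which leave out wild-type MEP replicate 1. Leaving out single libraries gave ranges of -0.118 to 0.0699 (Kdm1a, genotype in GMP), -0.0553 to 0.0389 (Kdm1a, Runx1-deleted GMP minus MEP), -0.242 to 0.555 (Gfi1b, GMP effect minus MEP effect), -1.8 to 0.206 (Rcor1, GMP effect minus MEP effect), -0.471 to -0.383 (Rcor1, Runx1-deleted GMP minus MEP), -0.633 to 1.37 (Rcor1, wild-type GMP minus MEP) and 0.0381 to 2.04 (Rcor1, genotype in MEP). The lone library left in a group is then assumed to vary like the others.

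Of 70 calls of list genes, 46 were kept whichever library was left out, and 131 of 1325 alternative values lost a call. The number of all genes called moved more: 569 (196 to 1925) for genotype in GMP, 872 (340 to 3427) for genotype in MEP, 190 (55 to 475) for their difference, 2143 (1200 to 3216) for XMP minus Runx1-deleted GMP, 844 (305 to 1595) for XMP minus Runx1-deleted MEP, 2675 (1579 to 3626) for Runx1-deleted GMP minus MEP and 2352 (1380 to 3315) for wild-type GMP minus MEP. Lane 5 alone holds both libraries of 2 groups, and lanes and genotype cannot be told apart in GMP. Gfi1 outside GMP rests on 8 to 66 reads a library, which limits how closely its level is known there.

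Same-numbered libraries were not shown to be pairs, since their deviations correlated between -0.475 and 0.782. Ordered by library number, which turns Runx1-deleted GMP round, the 6 pairs among the groups other than wild-type GMP correlated between 0.297 and 0.782. The 4 pairs with wild-type GMP gave -0.147 to 0.059, so not every pair was positive. A replicate block by library number called 708 genes for genotype in GMP and 1066 in MEP, and no call of the 4 genes changed. With the replicate block 552 genes were called for genotype in GMP and 844 in MEP, and no call of the 4 genes changed. With crossed numbers, chosen after seeing the data, 2466 genes were called for wild-type GMP minus MEP. For XMP minus Runx1-deleted GMP and Runx1-deleted GMP minus MEP, the crossed block is the same fit as the block by library number. It called 2371 and 2939 genes, in that order.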
